A study of Macaca fascicularis with 6 samples.

Results

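Mesothelial cells from the lungs of 6 cynomolgus monkeys (Macaca fascicularis) are described here. They were chosen by a rule on measured values, so that the levels of the genes in the rule describe the choice and are not findings. A barcode counted as a quality-controlled cell with more than 500 and fewer than 5000 detected genes and at most 25% of its unique molecular identifiers (UMIs, 1 per captured RNA molecule) in 13 mitochondrial protein-coding genes. Of these, a mesothelial cell had at least 50 UMIs of ITLN1 and at least 1 UMI of at least 2 of the 6 genes MSLN, UPK3B, PRG4, CALB2, LRRN4 and UPK1B, with no UMI of PTPRC, PECAM1, C1QA or CD3E, which mark leukocytes, endothelial cells, macrophages and T cells. The rule selected 538 cells of 25388 quality-controlled cells, or 2.12%, out of 35133 deposited barcodes.

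The lungs came from 3 monkeys of the control group (replicates 1, 2 and 3), which received saline, and 3 of the asthma group (replicates 8, 10 and 11), which were sensitized with an Ascaris suum antigen and then challenged with it through the airways. All were males, labelled 3 to 5 years old, and the lung tissue was dissociated with enzymes and depleted of dead cells before droplet capture. Each monkey gave 1 library, and the comparison asks which lung cells and transcripts differ in this model of allergic asthma. The replicates are therefore monkeys, and the model covers 1 time after challenge in animals of 1 sex. The total depth was 40556102, 33210436 and 32240293 UMIs in control replicates 1 to 3 and 41184329, 41489879 and 29014556 UMIs in asthma replicates 8, 10 and 11.

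Mesothelial cells form the single flat layer of the visceral pleura, the surface of the lung. They combine an epithelial organisation, with keratins and tight junctions, with vimentin and matrix genes, and they secrete lubricants, hyaluronan and complement proteins into the pleural fluid. ITLN1 encodes intelectin-1, a secreted lectin that binds microbial glycans, and MSLN encodes mesothelin, a surface glycoprotein of the mesothelium.

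The control libraries held 33, 34 and 47 of the 538 cells (replicates 1, 2 and 3), and the asthma libraries 236, 163 and 25 (replicates 8, 10 and 11). The mesothelial share of the quality-controlled cells was 0.732% (exact 95% binomial interval 0.504% to 1.03%), 0.968% (0.672% to 1.35%) and 1.16% (0.851% to 1.53%) in the control libraries. In the asthma libraries it was 5.48% (4.82% to 6.20%), 3.45% (2.95% to 4.02%) and 0.584% (0.379% to 0.861%). The groups overlapped, since asthma replicate 8 and asthma replicate 10 had the highest shares and asthma replicate 11 the lowest of all 6 libraries. Asthma replicates 8 and 10 together held 399 of the 538 cells, or 74.2%. The intervals cover counting error only. The mean share was 0.952% ± 0.213 (SD, n = 3) in the control group and 3.17% ± 2.46 (SD, n = 3) in the asthma group. This difference of 2.22 percentage points did not pass the two-sided exact permutation test (p = 0.4), whose smallest possible p with 3 against 3 libraries is 0.1. Without asthma replicate 8 the difference was 1.07 points, and without asthma replicate 11 it was 3.52 points. Among quality-controlled cells without PTPRC UMIs the shares were 4.46%, 8.67% and 6.02% in the control libraries and 23.8%, 15.3% and 1.68% in the asthma libraries, with a difference of 7.21 points (exact permutation p = 0.4).

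**Figure D1:**
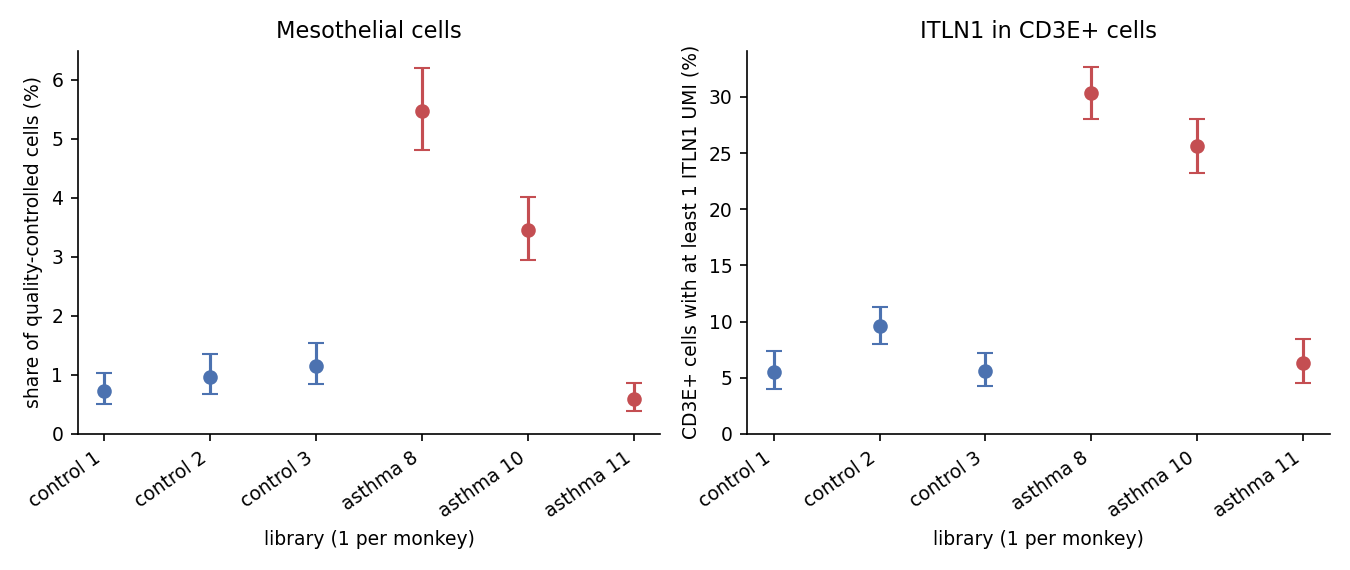
The left panel plots the mesothelial share of quality-controlled cells (%) in each of the 6 libraries, control in blue and asthma in red, and the right panel the share of CD3E+ cells with at least 1 ITLN1 UMI (%). Bars are exact 95% binomial intervals. Asthma replicates 8 and 10 are the highest in both panels, and asthma replicate 11 is at the level of the control libraries in both.

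ITLN1 was also found at low counts in other cells. CD3E+ cells, T cells that carry PTPRC and fewer than 50 ITLN1 UMIs, should not express ITLN1. Of these cells 5.50%, 9.56% and 5.60% had at least 1 ITLN1 UMI in the control libraries, against 30.3%, 25.6% and 6.28% in asthma replicates 8, 10 and 11. Expected shares after thinning each cell to 3000 UMIs were 3.51%, 5.54%, 3.24%, 23.3%, 20.1% and 4.04% in the same order, with median depths of 3313 to 4940 UMIs before thinning. The share was thus highest in the 2 libraries with the most mesothelial cells. By summed level per 1000000 UMIs (CPM), control replicate 1 was the highest at 116 CPM, 12 of its CD3E+ cells holding at least 10 ITLN1 UMIs, against 12.8 to 84.8 CPM in the other libraries. Mesothelial cells held 74.5% of the ITLN1 UMIs of all quality-controlled cells. The remainder was not all at low counts per cell. It includes 185 quality-controlled cells with at least 50 ITLN1 UMIs that the rule left out for a UMI of PTPRC, PECAM1, C1QA or CD3E.

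The rule did not act equally on every library. In all, 902 barcodes had at least 50 ITLN1 UMIs and at least 2 of the 6 further markers. Of these, 171 had 5000 or more genes, 79 and 75 of them in asthma replicates 8 and 10. Among those within the gene and mitochondrial limits, 185 carried a UMI of PTPRC, PECAM1, C1QA or CD3E, of which 97 carried 1 such UMI only. In control replicate 1, 26 barcodes were lost for these UMIs, 44.1% of those within the gene and mitochondrial limits. That library also had the most cells just below the limit on ITLN1. Cells that met every other condition numbered 17 with 30 to 39 ITLN1 UMIs, 10 of them in control replicate 1, and 13 with 40 to 49, 8 of them in control replicate 1. Just inside the limit were 10 cells with 50 to 59 and 6 cells with 60 to 69 ITLN1 UMIs. Median depth was 1910 UMIs for the cells with 40 to 49 and 1737 UMIs for those with 50 to 59. A further 37 cells met the other conditions with no ITLN1 UMI, 16 of them in control replicate 3, and their identity was not tested. No cell barcode of a mesothelial cell was shared between libraries.

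Mesothelial cells, as chosen by the rule, were deeply covered. Their median depth was 8700, 10763.5 and 7031 UMIs in the control libraries and 10532.5, 9280 and 7884 UMIs in the asthma libraries, against 3790 to 4853 UMIs for all quality-controlled cells. The median number of genes was 2705, 2936 and 2468 in the control group and 3062.5, 2802 and 2647 in the asthma group, and the median mitochondrial share lay between 3.35% and 6.25%. Both groups overlapped in all of these, and the exact permutation test over libraries gave p = 0.8 for UMIs, p = 0.5 for genes and p = 0.7 for the mitochondrial share. The depth depended on the limit on ITLN1. With at least 50 ITLN1 UMIs the mean of the library medians was 8831.5 UMIs in the control and 9232 UMIs in the asthma group. With at least 20 ITLN1 UMIs it was 6122 and 9040 UMIs.

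Of the genes that define the class, ITLN1 was the most abundant transcript of these cells. Its median share of a cell's UMIs was 5.42%, 6.29% and 4.66% in control replicates 1 to 3 and 5.34%, 5.53% and 4.75% in asthma replicates 8, 10 and 11. Over all 538 cells it ran from 2.27% at percentile 5 to 10.4% at percentile 95. Single cells held 52 to 3091 ITLN1 UMIs. MSLN was detected in 99.6% of the cells, PRG4, the joint and pleural lubricant lubricin, in 97.8%, and UPK3B, a uroplakin, in 96.8%. UPK1B, another uroplakin, was detected in 83.1% and LRRN4, a leucine-rich repeat membrane protein, in 56.1%. CALB2 (calretinin), a histological marker of mesothelium, had a UMI in none of the 538 cells, which allows a share of cells with a UMI of up to 0.558% and sets no limit on cells that carry the transcript. It had 21 UMIs in 9 of the 35133 barcodes of the series. Whether the annotation used covers its 3' end was not tested, so CALB2 bears neither way on the label. The other markers named for this class are parts of the rule, so that their detection was set by the choice of cells. Of the 6 further markers, 258 cells had 5, 213 had 4, 56 had 3 and 11 had 2.

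**Figure D2:**
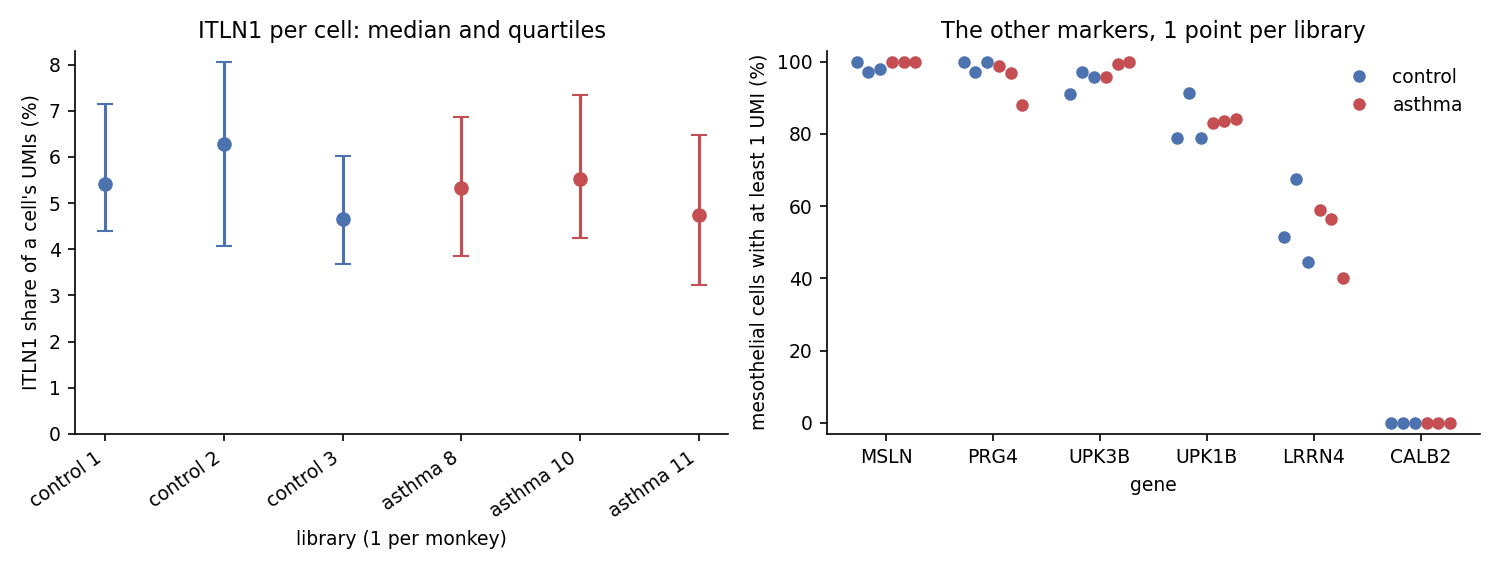
The left panel plots the ITLN1 share of a cell's UMIs (%) as the median with quartiles over the mesothelial cells of each library. The right panel plots the share of mesothelial cells (%) with at least 1 UMI of each of the 6 further markers, 1 point per library, control in blue and asthma in red. Library medians of ITLN1 lie between 4.66% and 6.29%, MSLN, PRG4 and UPK3B are near 100% in most libraries, and CALB2 is at 0 in all 6.

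Summed over the cells of a library, levels are given as CPM (UMI counts scaled to a library sum of 1000000), scaled for composition by TMM factors in mesothelial cells and without such factors in other classes. Since each UMI is 1 molecule caught at its 3' end, levels of different genes are compared without a length correction. MSLN stood at 2743, 2713 and 3465 CPM in the control libraries and 3611, 3877 and 3732 CPM in the asthma libraries, without overlap and higher in the latter. PRG4 was at 3351, 2407 and 3728 CPM and 2496, 1687 and 1733 CPM, and UPK3B at 1644, 1873 and 1303 CPM and 867, 1698 and 2156 CPM, both overlapping between groups. As parts of the rule these genes were not tested. Within cells, the median PRG4 level per 10000 UMIs was lowest in asthma replicates 10 and 11, at 14.9 and 13.8, and highest in control replicate 3, at 35.2.

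Genes known from mesothelium that the rule did not use were present as well. Of 24 such genes, 21 were found in the files under a unique symbol, and NKAIN4 alone had no UMI. Keratin 19 (KRT19) was detected in 99.8% of the cells at 3754 ± 822 CPM (mean ± SD over 6 libraries), against 19.1 CPM in fibroblast-like and 613 CPM in AT2-like cells. CLDN15, a claudin of cation-permeable tight junctions, reached 633 ± 95.1 CPM and was detected in 91.6% of the cells. BNC1 (basonuclin 1) reached 216 ± 37.8 CPM in mesothelial cells and 1.23 CPM in fibroblast-like cells, and WT1, the Wilms tumour transcription factor, 166 ± 31.0 CPM in mesothelial cells. GPM6A, a neuronal membrane glycoprotein also found in mesothelium, was at 291 ± 73.5 CPM, and RSPO1 (R-spondin 1), which potentiates Wnt signalling, at 433 ± 56.8 CPM. None of these comparisons between classes was tested, since the classes were set by their transcripts. Fibroblast-like cells (920) were taken as cells with at least 5 DCN UMIs and at least 1 UMI of LUM, COL1A2 or PDGFRA. AT2-like cells (416) had at least 50 SFTPC UMIs and at least 2 of 5 further markers of alveolar type 2 cells. Both had fewer than 50 ITLN1 UMIs and no UMI of the same 4 lineage genes. Fibroblast-like cells also had no UMI of the epithelial gene EPCAM, and no other epithelial gene was part of that choice.

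Besides ITLN1 and the mitochondrial genes, the transcripts with the highest means were TIMP1, an inhibitor of metalloproteinases, at 11620.5 ± 2930.3 CPM, the translation factor EEF1A1 at 11372 ± 1388 CPM, S100A6 at 6621 ± 876 CPM and complement C3 at 6149 ± 1489 CPM. TPT1, PTMA, TMSB10, KRT19, MSLN, TXNIP, ADIRF, S100A10 and VIM were also among the 15 most abundant, from 4671 CPM for TPT1 to 2745 CPM for VIM. Set against all other quality-controlled cells, with 10 CPM added to both, the ratio was high for ITLN1 (91.7), PRG4 (68.9), MSLN (60.8), PLA2G2A (57.5) and UPK3B (53.6). ALOX15 (39.8), INMT (36.0), ALDH1A3 (33.3), SULF1 (31.9), CLDN15 (31.2), KRT19 (29.7), C3 (29.6), TIMP1 (28.0) and PGF (27.5) followed. ALOX15, the lipoxygenase that forms lipid mediators from arachidonic and linoleic acid, was even over libraries, at 788, 875 and 932 CPM in the control group and 767, 719 and 867 CPM in the asthma group. INMT, a methyltransferase of indole amines, was at 1342 ± 276 CPM, and PGF, a ligand of the VEGF family, at 397 ± 90.5 CPM.

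PLA2G2A, a secreted phospholipase with antibacterial activity, differed most between libraries among these genes. It stood at 2473, 1882 and 3732 CPM in control replicates 1 to 3 and at 3156, 498 and 187 CPM in asthma replicates 8, 10 and 11. The groups overlapped, because asthma replicate 8 was within the range of the control libraries and asthma replicates 10 and 11 were below it. In these 2 libraries 63.8% and 32.0% of the cells had a PLA2G2A UMI, against 87.9% to 96.6% in the other 4. After thinning to 3000 UMIs the shares were 50.3% and 27.8% against 70.7% to 92.3%. The log2 difference of -1.05 ± 0.70 SE between groups did not pass the edgeR test (adjusted p = 0.999), but it passed without asthma replicate 8 and without the filter on low counts.

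**Figure D3:**
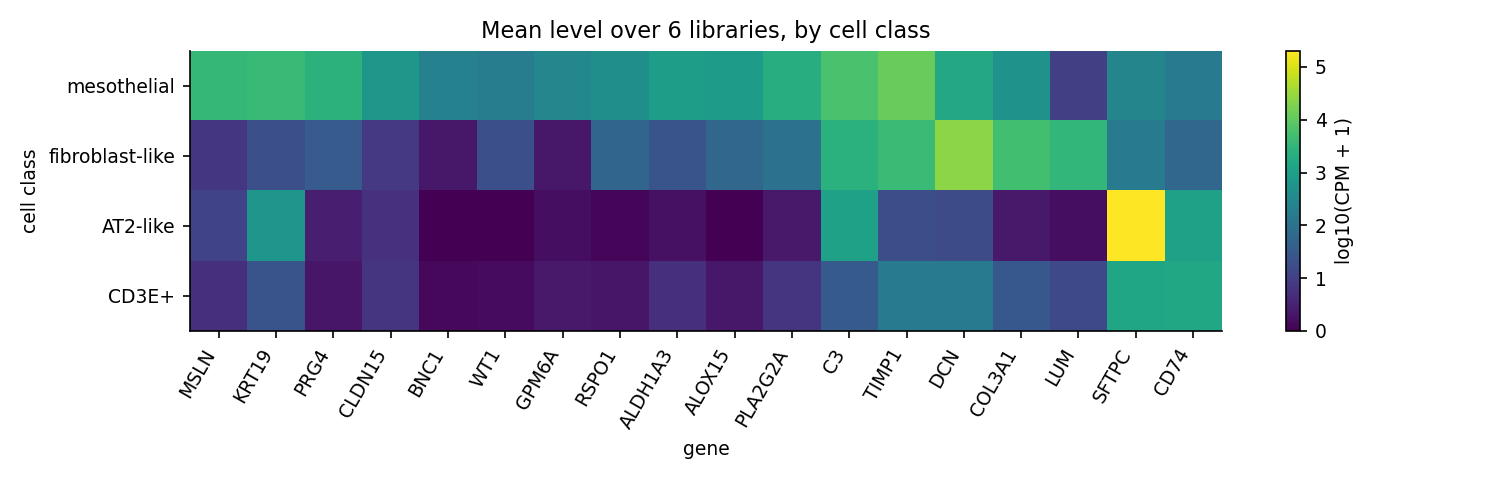
Each tile is the mean level over 6 libraries as log10(CPM + 1) of 1 gene (x axis) in mesothelial, fibroblast-like, AT2-like and CD3E+ cells (y axis). MSLN, CLDN15, BNC1, GPM6A and ALOX15 are high in the mesothelial row only, C3, TIMP1 and DCN are shared with fibroblast-like cells, and LUM is low in the mesothelial row. MSLN and PRG4 helped to select the mesothelial cells, DCN and LUM the fibroblast-like cells and SFTPC the AT2-like cells.

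Transcripts of both epithelial and mesenchymal character were present in the same class. Among keratins and junction genes, EZR (ezrin, a linker of membrane and actin) was at 1516 ± 225 CPM and DSP (desmoplakin) at 485 ± 184 CPM, while KRT7 was between 0 and 8.41 CPM in every library, against a mean of 220.2 CPM in AT2-like cells. KRT8 and KRT18 were not analysed here. Vimentin (VIM) reached 2745 ± 631 CPM, SPARC 1317 ± 414 CPM and COL3A1 519 ± 139 CPM, against 5030 CPM of COL3A1 in fibroblast-like cells. The proteoglycan DCN was found in 98.1% of mesothelial cells at 1606 ± 382 CPM, LUM at 8.97 ± 2.81 CPM, and PDGFRA, a defining marker of fibroblasts, had no UMI. TWIST1 and TWIST2 had none either, and ACTA2, the smooth muscle actin of contractile cells, was at 6.87 ± 7.17 CPM.

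Complement transcripts were abundant, the 14 complement and acute phase genes found in the files summing to between 11092 and 15833 CPM. C3, the central component, stood at 4361, 5971 and 8888 CPM in the control libraries and 5810.0, 5665 and 6199 CPM in the asthma libraries, the lowest and the highest both being control libraries. The C1 inhibitor SERPING1 was at 1915 ± 426 CPM. For water, ion and lubricant handling, the water channel AQP1 was at 1326 ± 389 CPM, the bicarbonate transporter SLC4A4 at 226 ± 16.2 CPM and the hyaluronan synthase HAS1 at 115 ± 49.6 CPM, whereas HAS2 had no UMI. Retinoic acid synthesis was represented by ALDH1A3 at 921 ± 213 CPM and ALDH1A2 at 272 ± 91.1 CPM, and the retinol carrier RBP4 at 250.5 ± 168 CPM.

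Of the growth factor genes, the binding proteins of insulin-like growth factors had the highest levels. IGFBP5 was at 1661 ± 436 CPM, IGFBP7 at 1314 ± 327 CPM and IGFBP2 at 900.1 ± 365 CPM. FGF9, a growth factor of the pleura in lung development, was at 229 ± 71.5 CPM and BMP4 at 199 ± 48.0 CPM. Of the cytokines, CXCL12 was highest at 384 ± 119.9 CPM, followed by LIF at 85.5 ± 38.9 CPM. IL33, an alarmin, had 6, 8 and 5 UMIs in the control and 44, 9 and 14 UMIs in the asthma libraries. Its level was highest in asthma replicate 11, at 68.9 CPM, where 36.0% of the cells had a UMI. TSLP was at 3.04 ± 5.71 CPM and the eotaxin CCL11 at 4.75 ± 3.99 CPM. For type 2 cytokines, the receptor chain IL13RA1 was at 137 ± 36.2 CPM and IL4R at 9.15 ± 6.62 CPM, and no UMI of IL1RL1, the IL-33 receptor, was found. The common chain IL6ST was at 403 ± 55.3 CPM.

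Immediate-early genes varied widely between monkeys, and the groups overlapped. Their summed level was 4684, 11326 and 4617 CPM in control replicates 1 to 3 and 5803, 9254 and 2289 CPM in asthma replicates 8, 10 and 11. EGR1 ranged from 83.7 CPM in asthma replicate 11 to 1479 CPM in asthma replicate 10, and FOS from 793 to 4296 CPM. IL6, a target of the same stress signals, was at 11.6, 155 and 15.5 CPM in the control and 95.3, 204 and 0 CPM in the asthma libraries, with no UMI in asthma replicate 11 and the highest value in asthma replicate 10.

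Markers of other cell types differed widely in level between types, those of fibroblasts being the highest. The summed level of the 5 endothelial markers was at most 4.42 CPM in any library, with CLDN5, EMCN and PECAM1 at 0, and that of the 5 smooth muscle markers at most 62.1 CPM, DES being the most abundant at 15.7 CPM. The 5 T and NK cell markers summed to 8.73, 34.0 and 19.9 CPM in the control libraries and 12.2, 12.6 and 4.92 CPM in the asthma libraries, against a mean of 4679 CPM in CD3E+ cells, NKG7 being the most abundant and CD3E at 0 by the rule. The 5 macrophage markers summed to 72.7, 12.4 and 6.62 CPM and to 21.3, 25.2 and 9.85 CPM, with C1QC the most abundant and C1QA at 0 by the rule. AT2 markers were uneven. Their sum over 5 genes was 250.2, 15.5 and 8.83 CPM in the control and 1054, 61.9 and 315 CPM in the asthma libraries, and SFTPC made up most of it. A single cell of asthma replicate 8 held 1415 of the 2531 SFTPC UMIs of that library. Of the 538 cells, a Scrublet score marked 13 as doublets, 6 each in asthma replicates 8 and 10 and 1 in control replicate 2, and they were kept. Fibroblast markers summed to 1667 to 3057 CPM, with DCN the most abundant and PDGFRA at 0, against 37041 CPM in fibroblast-like cells. CLIC5 at 267 CPM led the AT1 markers and TPPP3 at 126 CPM the ciliated cell markers, and marker sums for club, B, plasma and mast cells, granulocytes and red cells were at most 71.1 CPM in any library.

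The asthma and control groups were then compared over the 6 library sums. No gene passed the edgeR quasi-likelihood test at a Benjamini-Hochberg adjusted p under 0.05, that is 0 of the 5090 genes tested outside the rule (0% called), and 206 had an unadjusted p under 0.05, 101 of them higher and 105 lower in the asthma group. DESeq2 called 5 genes, GHV, GZMB, CD74 and ENSMFAG00000006224, which has no symbol in the files, among them, and had 92 genes with an unadjusted p under 0.05. The median log2 difference over all tested genes was 0.000711. Every asthma library was above every control library for 266 genes (5.23% of those tested) and below for 251 (4.93%). The summed depth of the class ran from 193628 UMIs in asthma replicate 11 to 2626831 UMIs in asthma replicate 8.

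The genes described next were selected for a low p on this contrast. GHV is a growth hormone gene of the placental cluster. It had 1, 0 and 0 UMIs in control replicates 1 to 3 and 156, 41 and 10 UMIs in asthma replicates 8, 10 and 11, or 59.5, 24.6 and 49.2 CPM. Per UMI of the class this was 54.2 times the control level, with a counting interval of 9.62 to 2152 that assumes independent molecules. The control level rests on 1 UMI in control replicate 1, and the fitted log2 difference of 5.42 moved to between 4.77 and 8.53 with 1 library left out, the highest without control replicate 1, where the control libraries are all at 0. Without asthma replicate 8, GHV did not pass the filter on low counts. They were not spread evenly, since 46 cells held all 208 UMIs, 5 of them 55.3%. A single cell held 9 of the 10 UMIs in asthma replicate 11, 29 of the 41 in asthma replicate 10 and 36 of the 156 in asthma replicate 8, so that the levels in asthma replicates 10 and 11 rest mostly on 1 cell each. In asthma replicates 8 and 10, 14.8% and 4.91% of the cells had a GHV UMI. The adjusted p was 0.0534 (edgeR) and 0.0212 (DESeq2). Growth hormone genes are near-identical copies, so that reads may have been split among them, and GHV is among the genes that the study names for mesenchymal cells of these libraries.

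NR4A2, an orphan nuclear receptor among the immediate-early genes, was at 17.5, 37.1 and 24.3 CPM in the control and 67.5, 106 and 83.7 CPM in the asthma libraries (log2 difference 1.71 ± 0.33 SE, edgeR adjusted p = 0.171). The summed immediate-early genes overlapped between groups, as given above. FBXO2, an F-box protein that binds glycoproteins, was at 8.73, 9.27 and 13.2 CPM and 51.1, 36.7 and 29.5 CPM, and NR1D2, a repressor of the circadian clock, at 11.6, 6.18 and 17.7 CPM and 48.4, 42.1 and 29.5 CPM. For neither did the groups overlap, and neither passed (edgeR adjusted p = 0.232 and 0.438).

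Lower in the asthma group was GZMB, granzyme B of cytotoxic lymphocytes. It was at 46.5, 58.7 and 57.4 CPM in the control and 12.2, 14.4 and 4.92 CPM in the asthma libraries, with a log2 difference of -2.11 ± 0.33 SE (edgeR adjusted p = 0.0534, DESeq2 0.0152). These levels rest on 16, 19 and 26 UMIs in the control and 32, 24 and 1 UMIs in the asthma libraries, 15 of the 26 in control replicate 3 being in 1 cell. CD3E+ cells held 2806, 4647 and 4573 CPM of GZMB in the control libraries and 5857, 5394 and 2330 CPM in the asthma libraries, so that the order in mesothelial cells was not that in T cells. AT2-like cells held 19.6, 35.3 and 27.7 CPM in the control libraries, against 11.9, 6.06 and 9.14 CPM in the asthma libraries, also without overlap. The summed T and NK markers overlapped between groups, and the part of lymphocyte RNA in these values was not tested.

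SLC6A3, the dopamine transporter, was at 52.4, 92.7 and 59.6 CPM in the control and 0.762, 13.2 and 39.4 CPM in the asthma libraries (edgeR adjusted p = 0.843), lowest in asthma replicate 8. BST1, an ectoenzyme that cleaves NAD, was at 69.8, 55.6 and 61.8 CPM and 28.2, 34.8 and 34.5 CPM, CLIC3, a chloride channel protein, at 497, 343 and 517 CPM and 192, 264 and 305 CPM, and SLC39A8, a zinc and manganese importer, at 218, 167 and 157 CPM and 114, 107 and 113 CPM. The groups did not overlap for any of the 3, and the edgeR adjusted p was 0.999 for each. SLC6A3 was almost absent from other classes, with no UMI in fibroblast-like, AT2-like or CD3E+ cells.

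**Figure D4:**
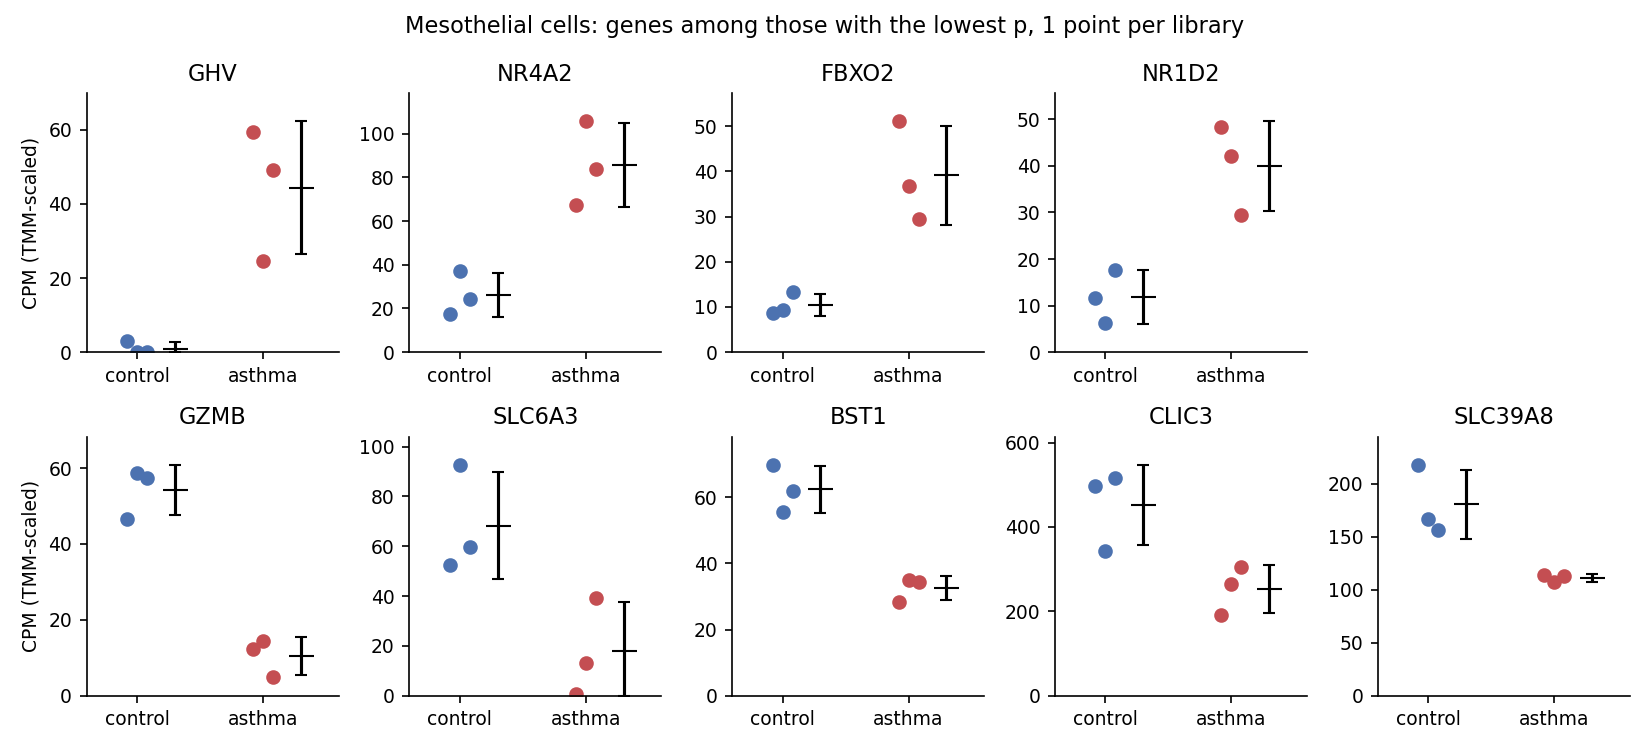
Each panel plots the level of 1 gene in CPM (TMM-scaled) in mesothelial cells, 1 point per library, with the mean and SD of each group in black (SD bars end at 0). In the upper row (GHV, NR4A2, FBXO2, NR1D2) all asthma libraries are above all control libraries, and in the lower row (GZMB, SLC6A3, BST1, CLIC3, SLC39A8) below them, by which these genes were selected. None passed an adjusted p under 0.05 with edgeR, while GHV and GZMB passed with DESeq2.

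In lists of related genes, members whose groups did not overlap are to be read against 5.23% (above) and 4.93% (below) of all tested genes. None of 8 tested keratin and junction genes, 6 genes for hyaluronan, lubricant and water transport, 10 complement and acute phase genes, 7 cytokines and chemokines, 18 matrix and transition genes or 3 cell cycle genes separated the groups. The median log2 difference of these lists lay between -0.06 and 0.21. Among 14 tested mesothelial genes outside the rule (median 0.11) the serine protease KLK11 was higher in every asthma library, at 93.1, 164 and 75.1 CPM in the control and 192, 177 and 197 CPM in the asthma libraries. Of 16 tested growth factor genes (median 0.07), KDR (VEGF receptor 2) stood at 20.4, 27.8 and 19.9 CPM and 58.7, 32.4 and 98.5 CPM, and FGF9 at 145, 192 and 216 CPM and 243, 358 and 217 CPM. Of 10 tested basement membrane genes, 9 had a positive log2 difference (median 0.33), and the laminin chain LAMB1 was at 81.5, 155 and 155 CPM and 321, 167 and 162 CPM. Both KDR and LAMB1 are also among the 13 tested genes that the study names for mesenchymal cells of these libraries (median 0.21), which is no independent evidence. Among 7 tested coagulation genes (median 0.42), tissue factor F3 and SERPINF1 were above and S100A10 below, and among 16 retinoid and lineage genes (median -0.13) NR2F2 was below.

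Genes of immune signalling gave the following counts. Of 10 tested cytokine receptors (median 0.06), IFNGR1, the interferon gamma receptor, was at 26.2, 40.2 and 37.5 CPM in the control and 68.2, 57.1 and 54.2 CPM in the asthma libraries, and IL1RAP, the accessory chain of IL-1 and IL-33 receptors, at 84.4, 52.5 and 59.6 CPM and 30.9, 47.5 and 39.4 CPM. Of 13 tested interferon-stimulated genes (median -0.18), 2 were lower in every asthma library, of which IFIT3 was at 34.9, 24.7 and 28.7 CPM and 24.0, 7.81 and 24.6 CPM. Of 8 tested antigen presentation genes, 7 had a negative log2 difference (median -0.46), and the proteasome subunit PSMB9 was lower in every asthma library. CD74, the invariant chain of MHC class II, was at 250.2, 83.4 and 428 CPM in the control and 54.1, 102 and 54.2 CPM in the asthma libraries, which overlapped through control replicate 2 (log2 difference -1.82 ± 0.45 SE, edgeR adjusted p = 0.843). CIITA, the regulator of class II genes, had no UMI, and CD74 was at 782 to 2263 CPM in CD3E+ cells and 5151 CPM in all cells outside the class, and the part of RNA from other cells was not tested. The summed macrophage markers overlapped between groups and were highest in control replicate 1. One of 12 tested chaperones, DNAJB1, was lower in every asthma library (median -0.09), and 1 of 15 immediate-early genes, NR4A2, was higher (median -0.07). No member of any list passed the edgeR test over all genes.

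Finally the asthma difference was compared between mesothelial and fibroblast-like cells of the same libraries, in a model with library as a block and both classes in each library. Its interaction term was past the threshold for 6 of 6748 tested genes (0.0889% called), 5 of them with a lower and 1 with a higher difference in mesothelial than in fibroblast-like cells. In each, the mesothelial groups overlapped and the fibroblast-like groups did not. VCAM1, the leukocyte adhesion molecule, stood at 297, 315 and 179 CPM in mesothelial cells of the control group and 233, 258 and 59.1 CPM in those of the asthma group, and at 36.7, 34.7 and 37.0 CPM against 288, 246.7 and 47.8 CPM in fibroblast-like cells. The difference of the log2 differences was -2.70 ± 0.33 (SE, edgeR adjusted p = 0.00365). Transglutaminase 2 (TGM2), a cross-linker of matrix proteins, was at 96.0, 167 and 189.9 CPM and 102, 139 and 98.5 CPM in mesothelial cells and at 36.7, 32.7 and 33.8 CPM against 133, 265 and 186 CPM in fibroblast-like cells, a difference of -2.75 ± 0.32 (SE, edgeR adjusted p = 0.00365). In the control libraries both genes were thus higher in mesothelial than in fibroblast-like cells. VCAM1 was lower in asthma replicate 11 than in the other asthma libraries in both classes, and in fibroblast-like cells it was still above the control libraries there.

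The sodium pump subunit ATP1B1 was at 276, 365 and 197 CPM and 369, 259.6 and 281 CPM in mesothelial cells and at 34.1, 65.4 and 32.8 CPM against 288, 215 and 266 CPM in fibroblast-like cells, a difference of -2.27 ± 0.28 (SE, edgeR adjusted p = 0.00365). C3 differed by -2.05 ± 0.34 (SE, edgeR adjusted p = 0.0457), with 675, 682 and 1486 CPM against 4898, 4854 and 2398 CPM in fibroblast-like cells. The gene ENSMFAG00000038912, without a symbol in the files, differed by -3.43 ± 0.54 (SE, edgeR adjusted p = 0.0285). Its level lay between 9.85 and 148 CPM in mesothelial cells and was 152, 102 and 86.7 CPM against 950.0, 666 and 573 CPM in fibroblast-like cells. It stood at 921 CPM in CD3E+ cells and 3738 CPM in all cells outside the mesothelial class, and the part of RNA from other cells was not tested. In the other direction ALCAM, an adhesion molecule that binds CD6, was at 253, 309 and 329 CPM and 282, 368 and 675 CPM in mesothelial cells and at 110.3, 77.6 and 100.5 CPM against 22.9, 42.4 and 33.6 CPM in fibroblast-like cells, a difference of 2.29 ± 0.36 (SE, edgeR adjusted p = 0.0285). Fibroblast-like cells were unevenly sampled, with 90, 73 and 203 cells in the control libraries and 85, 76 and 393 in the asthma libraries. Their makeup by subtype was not analysed here. Without control replicate 1, ALCAM, C3 and ENSMFAG00000038912 no longer passed, and the count of called genes was 4. ENSMFAG00000038912 was also lost without control replicate 2 (edgeR adjusted p = 0.0939), and ALCAM without control replicate 3 (0.126) and asthma replicate 11 (0.186). C3 was also lost without control replicate 2 (edgeR adjusted p = 0.107), control replicate 3 (0.126), asthma replicate 8 (0.0756) and asthma replicate 10 (0.0969), and so passed in the leave-one-out fits only without asthma replicate 11. The count was 10 without asthma replicate 8 and 15 without asthma replicate 10.

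**Figure D5:**
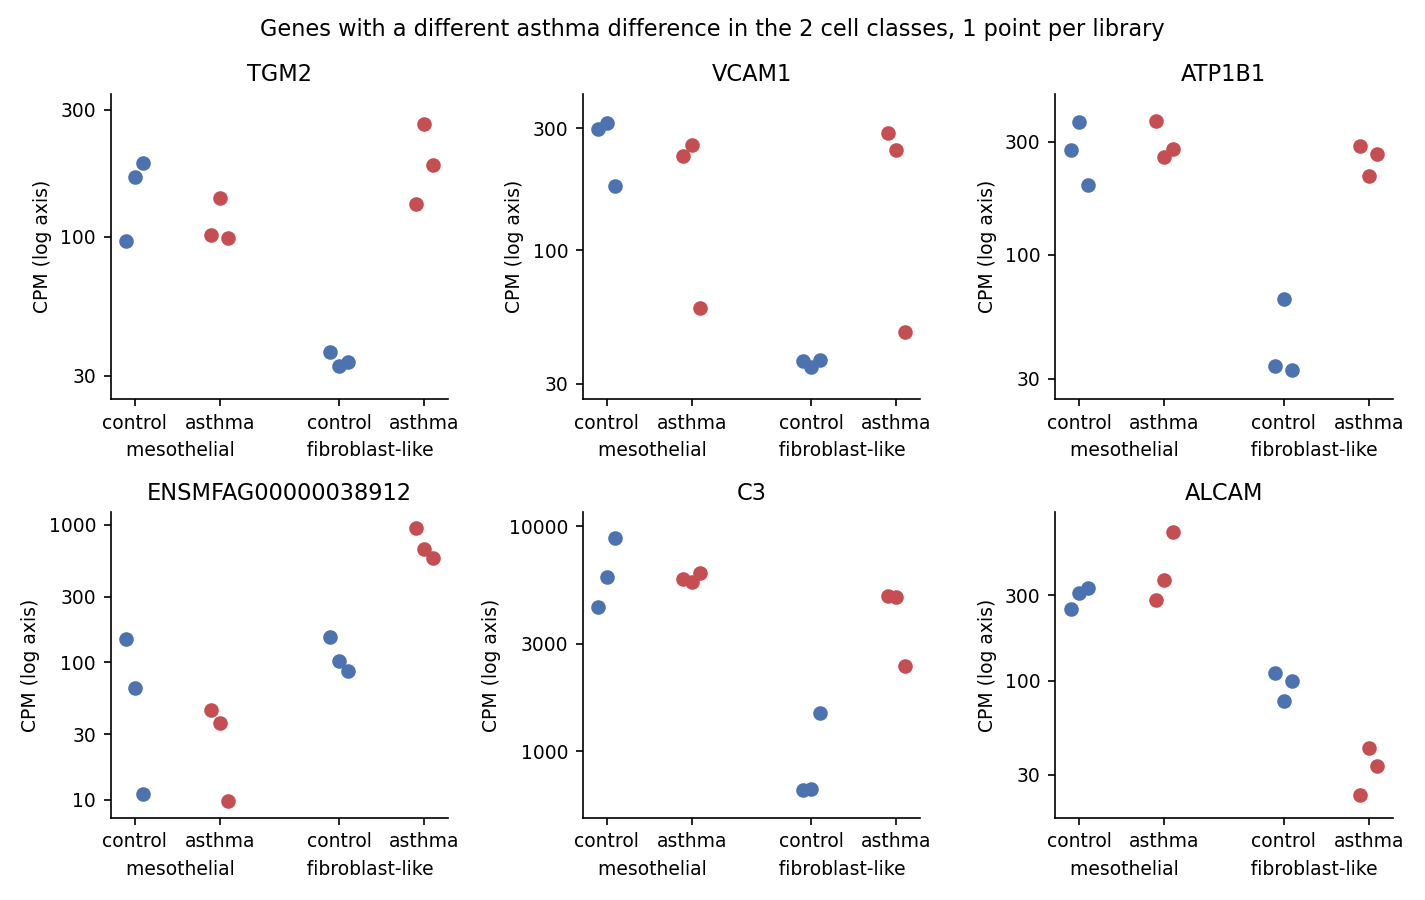
Each panel plots the level of 1 gene in CPM on a log axis, 1 point per library, in mesothelial cells (left pair, TMM-scaled) and fibroblast-like cells (right pair), control in blue and asthma in red. In each panel the mesothelial groups overlap, while the fibroblast-like asthma libraries are all above the control libraries, or for ALCAM all below.

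Against AT2-like cells no gene passed the same test, 0 of 6202 (0% called), with 232 genes at an unadjusted p under 0.05 (edgeR). The gene with the lowest p was CYP1B1, an oxygenase of aromatic compounds and retinoids, with a difference of -3.19 ± 0.63 (SE, edgeR adjusted p = 0.377). Its log2 difference between asthma and control was -0.43 in mesothelial cells and 3.11 in AT2-like cells. In mesothelial cells it was at 72.7, 114 and 243 CPM in the control and 158, 80.5 and 64.0 CPM in the asthma libraries, which overlapped. CD74 was also among the first, with a difference of -2.17 ± 0.54 (SE, edgeR adjusted p = 0.697). AT2-like cells numbered 110, 34 and 20 in control and 39, 88 and 125 in asthma libraries.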

How the data were processed

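One droplet 3' library of lung cells was made from each of 6 monkeys. The authors deposited UMI counts per gene and barcode (28623 genes) as filtered Cell Ranger matrices. The file headers name Cell Ranger 4.0.0 and the submitters' processing notes 2.1.1. No genome of the build used was at hand, so no coordinates or sequences are given, and genes go by the symbols in the files (16816 unique).

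Cells were kept and chosen by the rule in the report, without doublet removal. UMIs were summed per library and class and fitted with edgeR 4.0.16 (filterByExpr, TMM, quasi-likelihood), p-values being adjusted over all genes tested, with DEGs at an adjusted p under 0.05 and a log2 difference above 0.25 in size. Genes of the rule were not tested. Class interactions carried library as a block. Single values were compared by exact permutation of 3 against 3 libraries (20 assignments, smallest p 0.1). Fits were tested on simulated data. The alternatives covered the rule, filter, normalization, DESeq2 1.42.0, Scrublet and leaving out each library. Named genes were the 15 most abundant, the 15 most enriched, the lowest p without overlap (5 in each direction), called interactions and members of gene lists, of which some are not reported here. Members and lists were chosen with earlier results of these data known.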

Additional observations from a re-analysis of the deposited data

Results flagged for a closer look

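The asthma difference differed between mesothelial and fibroblast-like cells of the same libraries for 6 genes, by the interaction term of an edgeR fit. The difference of the log2 differences was -2.75 for TGM2, -2.70 for VCAM1, -2.27 for ATP1B1, -3.43 for ENSMFAG00000038912, 2.29 for ALCAM and -2.05 for C3. TGM2, VCAM1 and ATP1B1 passed in all 7 alternatives, ENSMFAG00000038912 missed in 2, ALCAM in 3 and C3 in 5 of the 7, with adjusted p up to 0.265, 0.203 and 0.248.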

How the results depend on the processing

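Of 5090 genes, 0 passed in mesothelial cells. The count was 3 with a mitochondrial maximum of 10%, 4 without Scrublet doublets, 2 without TMM scaling, 2 with library sizes free of ITLN1 and mitochondrial genes, 68 without a filter on low counts and 5 with DESeq2. Lifting the maximum on genes, a choice added once the data had been seen, gave 3. Leaving out 1 library gave 0 to 3, with 3 without asthma replicate 8 (PLA2G2A among them) and 1 without asthma replicate 10 (GHV). GHV passed in 7 of 15 alternatives and GZMB in 5 of 16 (log2 difference -2.90 to -1.33), and neither changed sign. Against fibroblast-like cells 73 genes were called without the filter and 4 to 15 with 1 library left out; against AT2-like cells 11 and 0 to 4.

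The share difference was 7.21 points with PTPRC-negative cells as denominator and 1.07 to 3.52 points with 1 library left out. The difference in median UMIs was 2918 with at least 20 ITLN1 UMIs, 2878 with ITLN1 at 1% of UMIs or more and -500 to 1367 with 1 library left out. For median genes it was 711, 670.0 and 16.7 to 251, and 382 without the condition on PTPRC, PECAM1, C1QA and CD3E. The difference of 711 had an exact permutation p = 0.1, the smallest possible, against p = 0.5 under the rule. The cause of these shifts was not tested. The library sums rest on 25 to 236 cells each. No paired analysis was possible because the groups share no replicate numbers.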
